A study of Mus musculus with 18 samples.

Results

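The cohesin genes of the mouse oocyte were described across single oocytes of 2 stages and 3 conditions. The 10 genes were taken by symbol from the 47069 gene identifiers of the deposited tables. They were the ring subunits Smc1b, Smc3, Rec8, Rad21 and Stag3, the loader Nipbl, the acetyltransferases Esco1 and Esco2, and the shugoshins Sgo1 and Sgo2a. All 10 matched 1 identifier each. Of these, 8 passed the filter on low counts, which kept 12161 genes in all, and Rec8 and Stag3 did not pass.

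Cohesin is a ring of a pair of SMC proteins, a kleisin that closes it and a STAG subunit bound to the kleisin, and it holds sister chromatids together. Meiotic rings carry germline paralogs, with SMC1B in place of SMC1A, REC8 in place of RAD21 and STAG3 in place of STAG1 or STAG2. NIPBL loads the ring onto chromatin, and ESCO1 and ESCO2 acetylate SMC3, which makes the ring stable. In the first meiotic division separase cuts REC8 along the arms, while shugoshin and the phosphatase PP2A shield REC8 at the centromeres until the second division. In female mice the rings are loaded before birth, and loss of cohesion from chromosomes with age is a known source of eggs with a wrong chromosome number.

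Each library was made from 1 oocyte of a C57BL/6JAusb mouse. Germinal vesicle (GV) oocytes are arrested in the first meiotic prophase and still have their nucleus. Those in metaphase II (MII) have completed the first division and wait for fertilisation. Control mice were young, at 4 weeks, or aged, at 12 months. The remaining mice were as old as the aged controls and drank nicotinamide mononucleotide (NMN) at 2 g/L for 4 weeks. NMN is converted to the coenzyme NAD in cells. After gentle lysis the nucleus was spun down and the supernatant was sequenced, so the values stand mainly for cytoplasmic RNA. The labels name no animals, so the oocytes of a group may share a mouse. Each group was therefore taken as 1 sample of its condition, and the values and SDs below describe these oocytes with no test between conditions.

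The 18 deposited libraries gave 16 oocytes, with 3 in each group but the GV young and GV aged controls, which had 2 each. The libraries labelled 1 and 2-1 of the GV young controls held the same values for every gene and count once, as GV young control 1. The batch of this oocyte is therefore not known, and it was taken as batch 1 below. GV aged control 2-2 held 5008 counts and was left out. Totals of the other oocytes ran from 2756183 to 5586857 counts. In a library, 3 counts, taken as the floor, were worth 0.467 to 1.18 scaled CPM (counts scaled to a common library total). Intervals and floors cover counting error only. A CPM is a share of the library, so fewer molecules of a gene and more of the others cannot be told apart. MII aged NMN 1 and MII aged NMN 2 stood apart, with counts in 6444 and 5679 genes against 7725 to 13816 in the other 14 oocytes. Mitochondrially encoded genes made up 43.0% and 33.2% of the counts there and 2.76% to 24.4% elsewhere, the 24.4% being that of MII young control 1. All 10 oocyte markers had counts in some oocyte of each stage. MII aged NMN 1 and MII aged NMN 2 each had 3 of them at 0, and the other 14 oocytes had at most 1 at 0. Of 12 cumulus and granulosa markers, 7 were at 0 in every GV oocyte and 3 (Amh, Amhr2 and Foxl2) in every MII oocyte. Their sum ran from 0.769 to 75.7 CPM in GV, 17.1 to 289 CPM in MII control and 0 to 43.4 CPM in MII aged NMN oocytes; what they add to the values below was not tested.

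Promoter sequence was available for 6 of the 10 genes in RefSeq (GRCm38.p6), as windows of 300 bases that span the transcription start. The 4 shown are those of 2 counted genes, Smc1b and Sgo1, and of 2 with almost no counts, Stag3 and Rec8. Capitals mark an E2F-type motif (TTCCCGC) in Smc1b and Stag3, and an E-box (CACGTG) in Sgo1 and Stag3.
Smc1b (chr15:85131908-85132207, - strand): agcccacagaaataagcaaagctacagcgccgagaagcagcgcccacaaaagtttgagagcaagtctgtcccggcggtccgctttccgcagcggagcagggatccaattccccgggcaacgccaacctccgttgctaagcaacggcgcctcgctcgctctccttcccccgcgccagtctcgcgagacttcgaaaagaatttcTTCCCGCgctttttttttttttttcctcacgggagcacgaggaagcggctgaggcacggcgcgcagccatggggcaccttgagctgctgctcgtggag
Sgo1 (chr17:53689266-53689565, - strand): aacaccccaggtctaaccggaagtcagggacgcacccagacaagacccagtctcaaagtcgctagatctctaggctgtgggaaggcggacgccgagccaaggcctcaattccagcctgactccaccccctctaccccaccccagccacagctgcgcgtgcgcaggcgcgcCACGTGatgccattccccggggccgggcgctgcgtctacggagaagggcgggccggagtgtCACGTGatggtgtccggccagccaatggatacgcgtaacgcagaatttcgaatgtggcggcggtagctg
Stag3 (chr5:138280259-138280558, + strand): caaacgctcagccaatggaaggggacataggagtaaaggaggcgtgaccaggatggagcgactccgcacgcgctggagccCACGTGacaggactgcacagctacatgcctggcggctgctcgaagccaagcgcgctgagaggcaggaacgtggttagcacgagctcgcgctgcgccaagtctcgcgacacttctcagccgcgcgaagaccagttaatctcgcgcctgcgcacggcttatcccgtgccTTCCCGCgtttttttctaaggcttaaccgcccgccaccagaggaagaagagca
Rec8 (chr14:55617916-55618215, + strand): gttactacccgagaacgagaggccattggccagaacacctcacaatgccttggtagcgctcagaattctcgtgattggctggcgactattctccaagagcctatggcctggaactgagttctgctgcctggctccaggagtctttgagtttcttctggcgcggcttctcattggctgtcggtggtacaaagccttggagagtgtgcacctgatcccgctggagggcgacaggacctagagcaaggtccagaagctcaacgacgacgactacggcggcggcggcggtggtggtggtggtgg
Both strands were searched. Of the genes not shown, Sgo2a had the E2F-type motif in 1 window, and the window of Smc3 matched no motif searched. The E2F-type motif was in 4.66% of 27025 promoter windows and the E-box in 7.24%. The STRA8-MEIOSIN motif (CNCCTCAG, in 7.97% of windows) and the NOBOX motif (TAATTG, in 8.15%) had no match in the windows of the 6 genes. A match is a run of letters and not a shown binding site. Smc1b and Stag3 both carried the E2F-type letters in their windows while their counts differed, as described next.

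Many oocyte mRNAs are stored with short tails and are lengthened during maturation through a cytoplasmic polyadenylation element near the 3′ end. The last 100 bases of the longest coding transcript of each gene (GENCODE vM21) were searched on the transcript's strand. They held such an element (TTTTAT or TTTTAAT) in 2 of the 10 genes, Esco2 and Sgo2a, and in 16.7% of 21747 genes. The polyadenylation signal AATAAA was in 61.8% of the 21747 genes and had no match in Esco2 or Sgo2a. For each gene 30 bases around one element are shown, with the element in capitals, at GRCm38 coordinates; it starts 23 bases from the 3′ end in Esco2 and 63 in Sgo2a.
Esco2 (chr14:65819039-65819068, - strand): tttaagtgTTTTATtaaaagttttactagc
Sgo2a (chr1:58025829-58025858, + strand): atgtatcaTTTTATcattaattctctttat

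The meiotic kleisin and the meiotic STAG subunit were nearly absent from the counts. Rec8 (GRCm38 chr14:55618037-55625395) had 0 counts in all 16 oocytes, and for 0 counts in the pooled oocytes of a group the exact 95% Poisson interval reached up to 0.243 to 0.467 CPM, unscaled. Stag3 (chr5:138280240-138312393) had 6 counts in GV aged NMN 1 and 0 in the other 15 oocytes. Their transcripts were therefore not detectable at this depth in 16 and 15 oocytes. The neighbouring genes were also low, with counts in 4 to 6 oocytes for Rnf31, Irf9, Ipo4 and Tm9sf1 beside Rec8, and in at most 5 for the neighbours of Stag3. Rad21l, another germline kleisin, which is known from early prophase, had counts in 3 oocytes and reached 7.57 CPM in 1 of them.

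The mitotic kleisin Rad21 (chr15:51962240-51991747) was counted in 15 of 16 oocytes. In GV oocytes Rad21 stood at 15.2 and 51.9 CPM in young controls, 14.7 and 36.1 CPM in aged controls, and 14.6, 20.6 and 27.3 CPM after NMN. In MII oocytes Rad21 stood at 12.8, 53.5 and 105 CPM in young controls, 30.3, 43.3 and 65.0 CPM in aged controls, and 2.37, 0 and 94.3 CPM after NMN. The oocytes of every group spread widely and the groups overlapped. Of the mitotic STAG genes, Stag1 was counted in 12 oocytes, up to 35.5 CPM, and Stag2 in 14, up to 30.5 CPM.

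Smc3 (chr19:53600398-53645833), the SMC subunit that mitotic and meiotic rings share, was among the most abundant of the 10. GV oocytes held 311 and 331 CPM of Smc3 in young controls, 418 and 371 CPM in aged controls, and 201, 480.5 and 274 CPM after NMN. MII oocytes held 309, 953 and 596 CPM in young controls and 1477.5, 1953 and 720 CPM in aged controls. After NMN the MII values of Smc3 were 16.2, 0 and 879 CPM. MII aged controls 1 and 2 held the highest values, the other MII controls overlapped the GV range or lay above it, and 2 of the MII NMN oocytes were below all others.

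Smc1b (chr15:85064689-85131964), the meiotic partner of Smc3, was lower. It was at 38.1 and 37.8 CPM in GV young controls, 19.5 and 30.4 CPM in GV aged controls, and 26.5, 31.5 and 14.6 CPM in GV NMN oocytes. Among MII oocytes it was at 34.1, 85.9 and 21.1 CPM in young controls, 105, 77.8 and 121 CPM in aged controls, and 5.53, 0 and 115 CPM after NMN. In the 2 GV control groups the Smc1b values did not overlap, with aged below young, and were less than 2-fold apart. Per length, in TPM (a level scaled by gene length and library), Smc3 was above Smc1b in 15 of 16 oocytes, with a median ratio of 9.13, and both were 0 in the remaining one, MII aged NMN 2. Smc1b made up a median of 39.6% of the summed TPM of Smc1a and Smc1b, and Smc1a, the mitotic paralog, was the higher of the pair in 13 of 16 oocytes.

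Nipbl (chr15:8290617-8444463) encodes the loader. Its GV values were 35.8 and 118 CPM in young controls, 68.2 and 64.3 CPM in aged controls, and 12.1, 42.1 and 50.4 CPM after NMN. Its MII values were 18.6, 164 and 184 CPM in young controls, 319, 277 and 223 CPM in aged controls, and 278, 9.93 and 303 CPM after NMN. MII young control 1 and MII aged NMN 2 were the low MII oocytes, and the 3 MII aged controls were all above every control GV oocyte.

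Esco2 (chr14:65819038-65833994), the acetyltransferase known from replicating cells, was the most abundant of the 10 genes per length, at 101 to 629 TPM and a median of 246 TPM. It ranked 448 of 12161 genes by median TPM. In CPM, GV oocytes held 811 and 867 in young controls, 344 and 1145 in aged controls, and 341, 396 and 789 after NMN. MII oocytes held 977, 1018 and 508 CPM in young controls, 1249, 1158 and 1783 CPM in aged controls, and 1131, 826 and 2140.0 CPM after NMN. No oocyte lacked it.

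Esco1, its paralog that works outside replication, stood at 44.3 and 82.4 CPM in GV young controls, 33.1 and 65.8 CPM in GV aged controls, and 27.4, 36.1 and 39.6 CPM in GV NMN oocytes. In MII oocytes it stood at 26.1, 165 and 309 CPM in young controls, 169.6, 188 and 59.9 CPM in aged controls, and 99.5, 107 and 47.5 CPM after NMN. Esco2 exceeded Esco1 per length in 16 of 16 oocytes, by a median of 16.2-fold and a lowest ratio of 2.04 in MII young control 2-1. The share of Esco2 in the pair was 85.2% ± 16.2 (SD, n = 3) in MII young controls and between 93.2% and 95.1% on average in the other 5 groups.

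Sgo1 and Sgo2a encode the shugoshins, and SGO2 is the one known to protect centromeric cohesin in mouse oocytes. Sgo1 (chr17:53674786-53689333) was at 122 and 93.9 CPM in GV young controls, 41.2 and 38.3 CPM in GV aged controls, and 34.7, 43.7 and 78.8 CPM in GV NMN oocytes. In MII oocytes it was at 121, 114 and 94.0 CPM in young controls, 115, 73.3 and 130.0 CPM in aged controls, and 22.5, 0 and 184 CPM after NMN. The GV young oocytes were above all 5 aged GV oocytes.

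Sgo2a (chr1:57995971-58025899) was the lowest by median TPM of the 8 counted genes, at 14.7 and 18.3 CPM in GV young controls, 13.7 and 27.3 CPM in GV aged controls, and 9.14, 18.2 and 0.384 CPM in GV NMN oocytes. Its MII values were 0.209, 54.2 and 52.1 CPM in young controls, 57.5, 47.5 and 14.5 CPM in aged controls, and 1.18, 0 and 59.0 CPM after NMN. The values of 0.384 and 0.209 CPM were 1 count each, in oocytes that held 205 and 580 counts of Sgo1. Sgo1 was above Sgo2a per length in 15 of 16 oocytes. The size of that gap depends on the gene length used: Sgo2a was 3.58% ± 3.12 (SD, n = 15) of the summed TPM and 21.6% of the summed counts. The deposited lengths of Sgo1 ran from 545 to 1505 bases, between the coding model of 3628 bases and 2 short noncoding models of 506 and 382 bases, so its TPM rests on a shorter length than that of the coding model.

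By median TPM, Esco2 came first in all 6 groups. Smc3 and Sgo1 followed in 5 of them, in either order, and Esco1 took place 4 in all 6. The places of Sgo1 rest on the short deposited lengths described above, and its order at the length of the coding model was not computed. Between Esco2 and the next gene the oocytes overlapped in the GV young, MII young and MII NMN groups. Rad21, Smc1b, Nipbl and Sgo2a filled the lower places, except in MII NMN oocytes, where Nipbl took place 3 and Smc3 place 5. Neighbours among these lower genes overlapped in every group, except that Smc1b lay above Rad21 in MII aged controls. Sgo2a was the last of the counted genes in all groups but MII young controls, where Smc1b was.

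**Figure D1:**
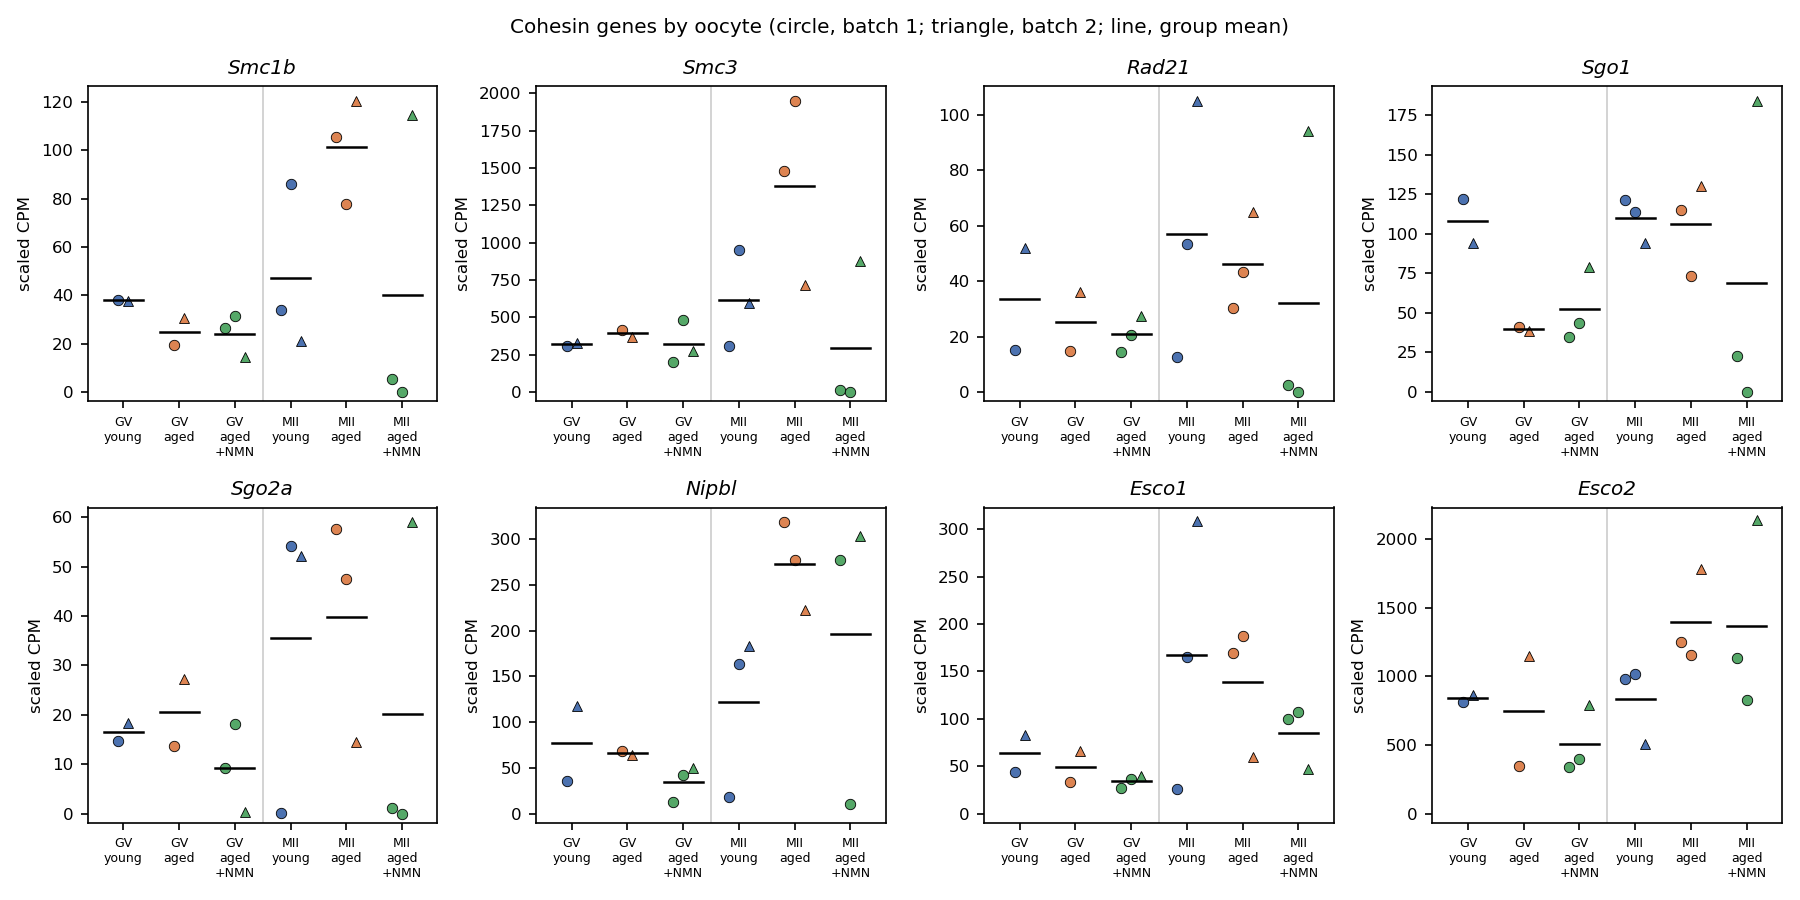
Scaled CPM (y axis, from 0, a separate scale for each gene) of the 8 counted genes in each oocyte, by stage and condition (x axis). Circles are oocytes taken as batch 1, triangles those of batch 2 and lines group means. The GV young values of Sgo1 (122 and 93.9 CPM) lie above the aged GV oocytes, and 2 MII NMN oocytes lie at or near 0 for 5 genes.

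**Figure D2:**
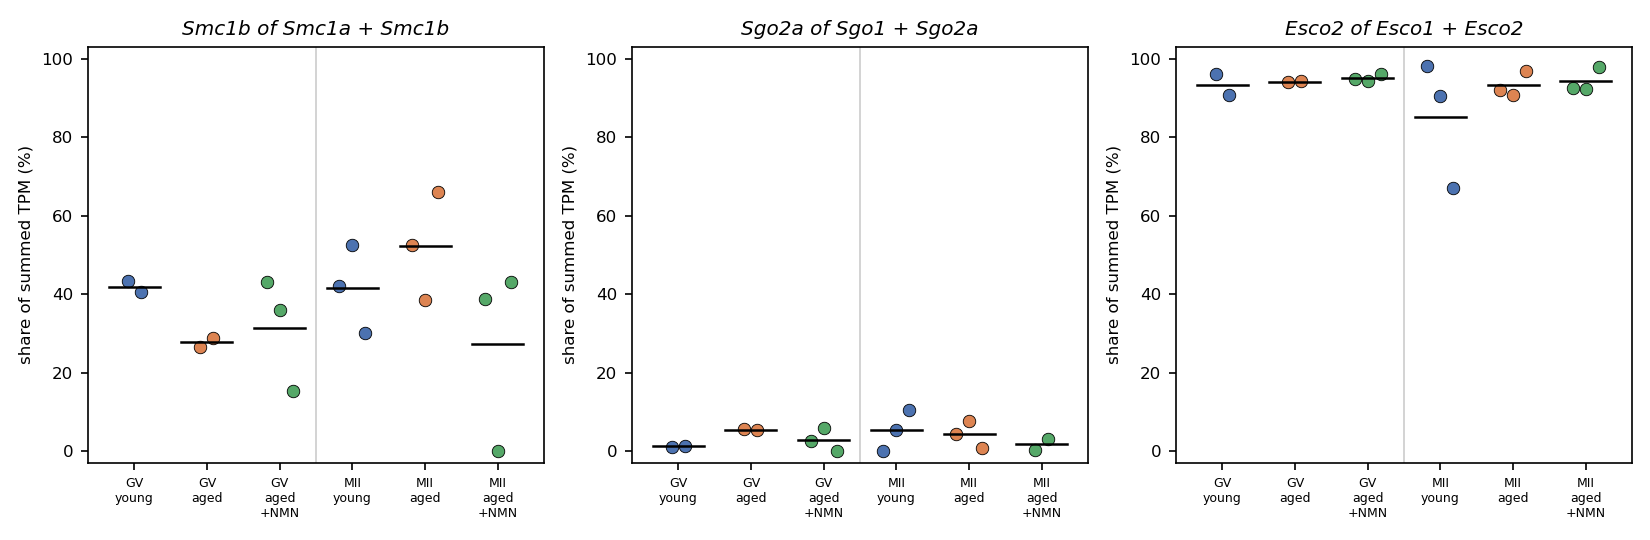
Share of the summed TPM (y axis, percent) that Smc1b, Sgo2a and Esco2 take within their paralog pairs, by group (x axis). Points are oocytes and lines are group means; Esco2 takes at least 67.1% of its pair in every oocyte, and Sgo2a at most 10.5%.

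Stage was compared first, MII against GV within each condition. A gene is called apart when the group means differ at least 2-fold, the higher mean is at least 10 CPM and no oocyte of one group overlaps the other. The comparisons below share groups, so their values are not independent of each other. Leaving out an oocyte, or taking a single batch, makes an overlap less likely for any gene. The shares of all genes were computed for the full groups only, so calls under such settings have no share to be set against.

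In aged controls, 4 of 8 genes were higher in MII and apart, where 7.43% of all 12161 genes were, and none was lower, where 17.3% of all genes were. Nipbl was 4.12-fold higher, at 273 ± 48.3 against 66.3 ± 2.75 CPM (mean ± SD, n = 3 and 2). Smc1b was 4.06-fold higher, at 101 ± 21.7 against 25.0 ± 7.76 CPM. Smc3 was 3.50-fold higher, at 1383 ± 622 against 395 ± 33.2 CPM, and Sgo1 was 2.67-fold higher, at 106 ± 29.4 against 39.8 ± 2.06 CPM. All 8 genes had higher MII means under each of the scalings tried, and the median log2 ratio was 1.43 against -0.29 over all genes. Within batch 1 the median was 1.95 and within batch 2, with 1 oocyte a stage, it was 0.89. Smc3 was not apart within batch 2, where its log2 ratio was 0.95 against 1.81 over both batches. Without GV aged control 2-1, which leaves 1 GV oocyte, all 8 genes were apart, with a median of 1.85.

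In young controls no gene was apart, where 12.2% of all genes were higher and 13.3% lower. The median log2 ratio was 0.71, against 0.35 over all genes, 0.93 within batch 1 and 0.74 within batch 2. The GV oocyte of batch 1 was GV young control 1, whose batch is not known. Esco1 had the highest ratio, with MII oocytes at 167 ± 141 CPM and GV oocytes at 63.4 ± 27.0 CPM. Esco2 was level, at 834 ± 284 and 839 ± 39.2 CPM, as was Sgo1, at 109.8 ± 14.1 and 108 ± 20.1 CPM. Leaving out MII young control 1, the oocyte with 24.4% mitochondrial counts, changed the count, and the reason was not tested. Without it, Smc3, Rad21, Sgo2a, Nipbl and Esco1 were higher and apart, with a median of 1.19. Within batch 2, with its 1 oocyte a stage, Rad21, Sgo2a and Esco1 were. With GV young control 1 placed in batch 2, Nipbl was as well. The sign for Smc1b, Sgo1 and Esco2 depended on the scaling between libraries.

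In NMN-treated mice, 2 of 8 genes were higher in MII and apart, where 3.26% of all genes were, and none was lower, where 18.1% were. Esco2 was 2.68-fold higher, at 1366 ± 688 against 509 ± 244 CPM, and Esco1 was 2.46-fold higher, at 84.6 ± 32.3 against 34.4 ± 6.26 CPM. Neither was apart by library totals without further scaling or by TPM. Nipbl had a higher ratio with overlapping oocytes, at 197 ± 162 against 34.8 ± 20.1 CPM. The 8 genes had a median log2 ratio of 0.87 against -0.82 over all genes. The batches split in sign: the median was -2.35 within batch 1, which held MII aged NMN 1 and 2, and 1.71 within batch 2, which held 1 oocyte a stage. With those 2 oocytes left out, a choice made after seeing the data, all genes but Esco1 were higher and apart, which is the 1 remaining MII oocyte against 3 GV oocytes. Without MII aged NMN 2-1, Smc1b, Smc3, Rad21 and Sgo1 were lower and apart, Esco1 alone was higher and apart, and the median was -2.40.

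**Figure D3:**
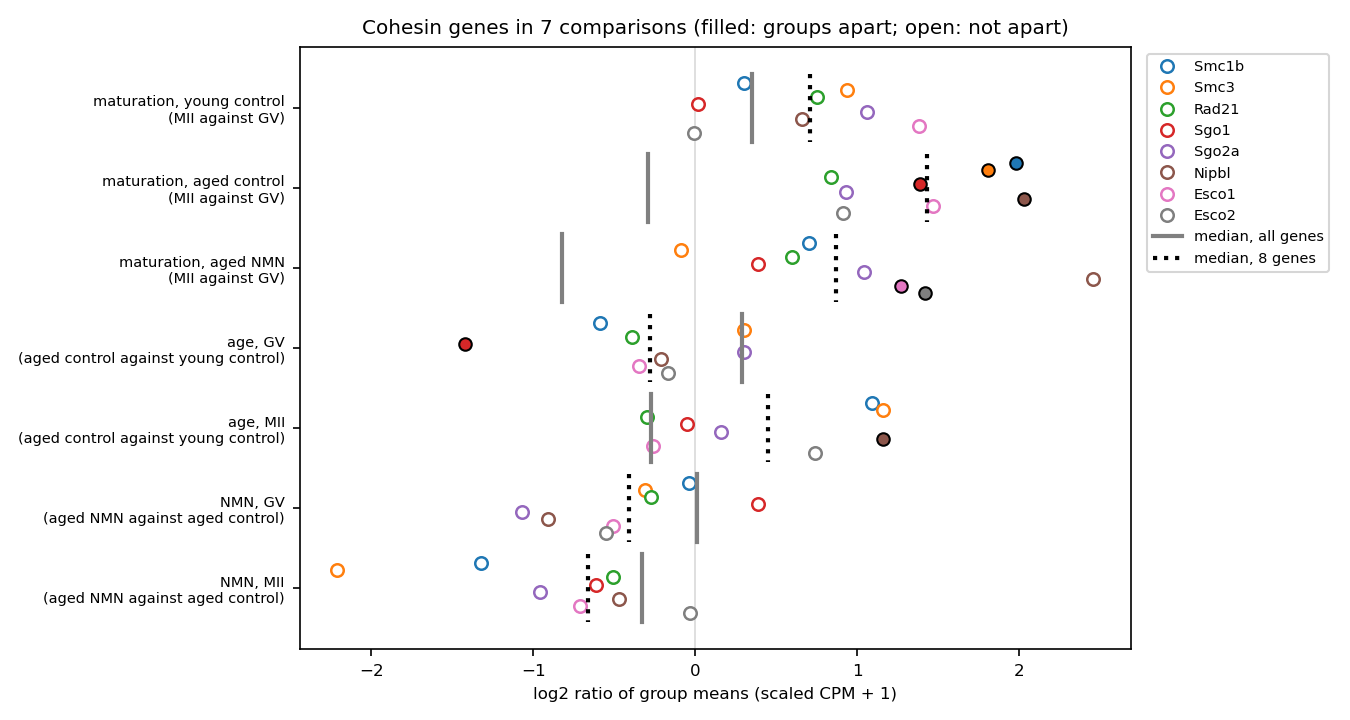
Log2 ratio of group means (x axis, scaled CPM + 1) of the 8 counted genes in each of 7 comparisons (y axis). Filled points are genes whose groups were apart, dotted lines the median of the 8 genes and grey lines the median of all 12161 genes; in aged controls all 8 points lie to the right of 0.

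Age was compared between the control groups within each stage. In GV oocytes Sgo1 was the gene apart, 2.72-fold lower in aged than in young controls. Its means were 39.8 ± 2.06 and 108 ± 20.1 CPM (SD, n = 2 each), and the pooled counts gave 44.8 CPM with a 95% Poisson interval of 40.5 to 49.5 against 106 CPM with 98.7 to 113. The log2 ratio of Sgo1 lay between -1.99 and -1.22 over all 17 alternatives, within-batch values included. That was 1 gene lower of 8 where 4.90% of all genes were lower, and 0 higher where 9.26% of all genes were. The deposited lengths of Sgo1 were 694 and 577 bases in young and 1087 and 635 bases in aged controls. These lie between its coding and noncoding models, and which models held the counts that differed was not tested. Over the 8 genes the median was -0.28, against 0.29 over all genes, with -0.25 and -0.31 within batches 1 and 2, each of 1 oocyte a group. The batch 1 value rests on GV young control 1, whose batch is not known. It was 0.25 without GV young control 2-2, 0.08 without GV aged control 1 and -0.92 without GV aged control 2-1. The immune marker sum was higher in every aged GV oocyte than in the young ones: it was 9.27 and 8.87 CPM in young controls, 237 and 14.2 CPM in aged controls and 101, 175 and 21.9 CPM after NMN. Of the 7 immune markers, 5 had a count in some GV oocyte, Ptprc and C1qa were at 0 in all, and their part in the result was not tested. Smc1b had no overlap either, at 25.0 ± 7.76 against 38.0 ± 0.194 CPM, while Smc3 was higher without overlap, at 395 ± 33.2 against 321 ± 13.8 CPM. Without GV aged control 2-1, Rad21 and Esco2 were lower and apart as well, and without GV young control 1 Rad21 was.

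In MII oocytes Nipbl was the gene apart, 2.24-fold higher in aged controls at 273 ± 48.3 against 122 ± 90.1 CPM. This was 1 of 8 genes where 1.30% of all genes were higher, and 0 were lower where 3.26% of all genes were. Nipbl was not apart without MII young control 1, by library totals, by TPM or within batch 2, and its log2 ratio ran from 0.28 to 1.70 over 18 alternatives. Sgo1 stood close in the MII control groups, with a sign that depended on the scaling, at 106 ± 29.4 against 109.8 ± 14.1 CPM. Smc3 had a mean of 1383 ± 622 against 619 ± 323 CPM and Smc1b of 101 ± 21.7 against 47.0 ± 34.3 CPM, both with overlapping oocytes. Esco2 was higher without overlap but less than 2-fold, at 1397 ± 338 against 834 ± 284 CPM. The median log2 ratio was 0.45 against -0.27 over all genes, with 0.75 within batch 1 and 0.27 within batch 2, where Smc1b and Esco2 were higher and Sgo2a and Esco1 lower and apart between single oocytes. Without MII young control 2, Smc1b and Smc3 were also higher and apart.

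NMN was compared with aged controls within each stage. In GV oocytes no gene was apart, where 1.38% of all genes were higher and 2.60% lower. The median log2 ratio was -0.41 against 0.01 over all genes, and -0.03 within batch 1 and -0.49 within batch 2. Nipbl had no overlap, at 34.8 ± 20.1 against 66.3 ± 2.75 CPM, a 1.90-fold lower mean after NMN. It was lower and apart by library totals, and without GV aged NMN 2 or 2-1. Sgo2a was lower and apart without GV aged NMN 2, and Sgo2a and Esco2 were without GV aged control 1. The mean of Sgo1 after NMN was 52.4 ± 23.3 CPM, which lay above the aged control mean (below it by TPM), and no NMN oocyte reached the range of the young controls.

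In MII oocytes no gene was apart either, where 1.24% of all genes were higher and 7.01% lower. Here the median was -0.66 against -0.33 over all genes. The 3 NMN oocytes did not resemble each other. MII aged NMN 2 had 0 counts of 5 of the 8 genes, Smc1b, Smc3, Rad21, Sgo1 and Sgo2a, while it held 2663 counts of Esco2, 344 of Esco1 and 32 of Nipbl. Of 3585 genes with a count in all other 15 oocytes, 19.4% had none in this one. MII aged NMN 1 held 41 counts of Smc3, 14 of Smc1b, 6 of Rad21, 57 of Sgo1 and 3 of Sgo2a beside 2863 of Esco2 and 703 of Nipbl. For Smc1b, Smc3, Rad21 and Sgo1 that oocyte was below all 14 oocytes other than MII aged NMN 2, which was so for 38.3% of 4608 genes. MII aged NMN 2-1 was at or near the top of the MII controls for Smc1b, Rad21, Sgo1, Sgo2a, Nipbl and Esco2, and within their range for Smc3 and Esco1.

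The 5 genes with the lowest values in MII aged NMN 1 and 2 included both SMC subunits, the kleisin and both shugoshins. Both acetyltransferases lay within the range of the MII controls in those oocytes. The loader gene Nipbl was within that range in MII aged NMN 1, at 278 CPM. In MII aged NMN 2 it was at 9.93 CPM, the lowest of the 16 oocytes. Both oocytes were of batch 1 by the reading used here, had the highest mitochondrial shares and the fewest genes, and the part of these in the result was not tested. Within batch 1 the median log2 ratio was -3.53, and those 5 genes were lower and apart. Within batch 2, with 1 oocyte a group, it was 0.36. One title, read as the second oocyte of batch 1, may instead name batch 2, which gives -2.75 and -0.47. With both oocytes left out, also chosen after seeing the data, the median was 0.37, with Rad21 higher and Esco1 lower and apart, and without MII aged NMN 2-1 it was -3.78, again with Smc1b, Smc3, Rad21, Sgo1 and Sgo2a lower and apart. Without MII aged control 2-1, Smc3 and Esco1 were lower and apart.

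**Figure D4:**
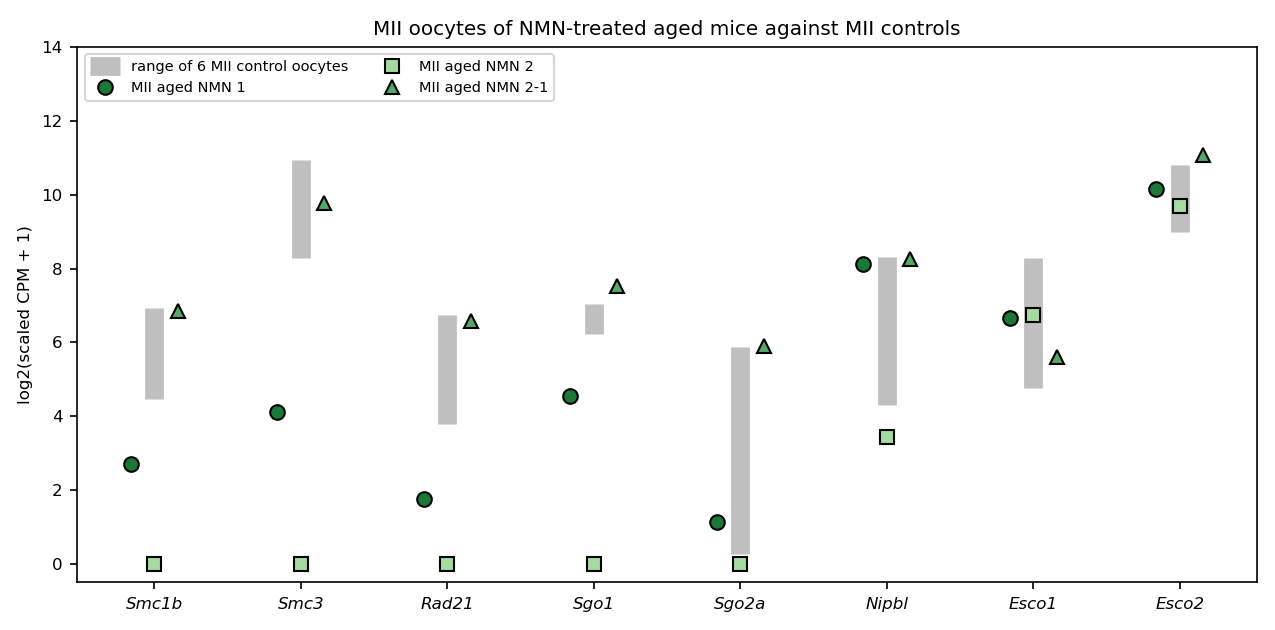
Log2(scaled CPM + 1) (y axis) of the 8 counted genes (x axis) in the 3 MII oocytes of NMN-treated aged mice, drawn over the range of the 6 MII control oocytes (grey bars). MII aged NMN 2 sits at 0 for 5 genes, whereas Esco1 and Esco2 lie inside or above the control range in all 3 oocytes.

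Other genes of cohesin control were taken from lists chosen by function. Among genes for loading, release and acetylation, Mau2, the partner of NIPBL in the loader, had 3.35 and 0 CPM in GV young controls and 23.7 and 6.14 CPM in GV aged controls. It had 0, 0 and 0.937 CPM in MII NMN oocytes against 42.2, 48.5 and 17.8 CPM in MII aged controls, and the groups were apart. Of the 7 genes of that list, Ctcf, a chromatin protein that positions cohesin, was higher in MII and apart in all 3 conditions, at 106 against 52.5 CPM in young controls, 162 against 76.6 CPM in aged controls and 224 against 54.3 CPM after NMN. Wapl, which releases cohesin, was higher in MII and apart after NMN, at 279 against 82.3 CPM. Cdca5, the gene of sororin, which counters release, was lower in MII and apart in aged controls, at 35.8 against 96.8 CPM. So was Hdac8, which deacetylates SMC3, at 14.01 against 41.8 CPM. That made 1 gene of the list higher and 2 lower in aged controls, where 7.43% and 17.3% of all genes were. The count was 2 higher and 0 lower in young controls, where 12.2% and 13.3% of all genes were, and 2 higher and 1 lower after NMN, where 3.26% and 18.1% were.

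Among 16 counted genes for protection and cleavage, 5 were higher and 2 lower with age in GV oocytes and apart, with a median log2 ratio of 0.90 against 0.29 over all genes, of which 9.26% were higher and 4.90% lower. Meikin, which works with shugoshin at meiotic kinetochores, had 0 and 0.783 CPM in GV young controls against 17.0 and 5.89 CPM in GV aged controls. Plk1, a kinase that acts on cohesin and kinetochores, was at 31.7 and 16.7 against 89.1 and 49.4 CPM in the same order. Csnk1e, a casein kinase whose family phosphorylates REC8, was at 148 and 82.7 against 449 and 161 CPM, the oocytes taken as batch 1 first. Csnk1d, of the same family, was apart in the other direction, at 21.2 CPM in young and 4.47 CPM in aged controls. With NMN in MII oocytes none of the 16 was higher and apart and 4 were lower and apart, with a median of -1.17 against -0.33 over all genes, of which 7.01% were lower. Meikin, Csnk1d and Sgo2b were at 0 in all 3 NMN oocytes. Plk1 was at 25.3 CPM there against 88.0 CPM in aged controls. Pttg1, the gene of securin, which holds separase inactive, was the most abundant of the list at 1375 to 16203 CPM. It was higher in MII and apart in aged controls (5345 against 2411 CPM) and after NMN (10256 against 3333 CPM), and MII aged NMN 1 held the 16203 CPM.

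In the maturation of aged controls the median log2 ratio was 0.61 over 3 counted mitotic subunits, 0.34 over the 7 loading and release genes, 0.46 over the 16 protection genes, 1.28 over 4 genes of the meiotic axis, 0.88 over 8 condensin genes and 0.54 over 6 SMC5/6 genes. The 8 cohesin genes stood at 1.43 and all genes at -0.29. Sycp1 and Sycp3, of the synaptonemal complex, were apart and higher, at 41.8 against 9.58 CPM and 84.0 against 26.6 CPM. The condensin genes Smc2, Smc4 and Ncapd3 were also apart and higher, with Smc4 at 1883.5 against 808 CPM. That made 2 of 4 axis genes and 3 of 8 condensin genes higher and apart, where 7.43% of all genes were. None of either list was lower and apart, where 17.3% of all genes were. With NMN in MII oocytes Smc2 and Smc4 were lower and apart, with Smc4 at 422 against 1883.5 CPM. That was 2 of 8 condensin genes, where 7.01% of all genes were lower and apart. Of the mitotic subunits, Stag2 was higher in MII and apart in aged controls, at 25.2, 13.8 and 30.5 against 9.65 and 8.35 CPM. In young controls it was lower in MII and apart, at 0, 12.8 and 14.5 against 23.7 and 17.2 CPM. It was also lower and apart with age in GV oocytes. In MII NMN oocytes it was lower than in aged controls and apart, at 0.395, 0.931 and 10.6 CPM. Each time it was 1 of 3 genes, where 7.43%, 13.3%, 4.90% and 7.01% of all genes were.

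Across the 16 oocytes, the log2 levels of the 8 genes varied together to differing degrees. The 28 pairs had a median Pearson r of 0.55 (0.60 without MII aged NMN 1 and 2), against 0.10 over all pairs of 5732 genes, and all pairs share library depth, scaling and the 2 low oocytes. Smc1b and Smc3 were the pair with the highest r, 0.93, and Sgo1 and Esco1 the one with the lowest, -0.05. The gene most like each by r was Wdr76 for Smc1b (0.947), Prrc2c for Smc3 (0.976), Serpine2 for Rad21 (0.966), Msh3 for Sgo1 (0.964), Tbc1d1 for Sgo2a (0.922), Eea1 for Nipbl (0.928), Mpp5 for Esco1 (0.917) and Dek for Esco2 (0.937). Wapl was second for Esco1 (0.912). These are descriptions over 16 oocytes of 6 groups, with no test.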

How the data were processed

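RNA was sequenced from single GV and MII oocytes, 1 per library. Per the submitters' processing notes, the tools were TopHat2 2.1.1, Cufflinks, Trim Galore 0.4.5 and FastQC 0.11.8, with the builds mm10 and GRCm38; which step made the tables is not given in the sources used here. Per the file headers, the deposited expected counts are estimated reads per gene, not normalised. Per the file headers, the deposited TPM values are scaled by gene length and library, and each table also gives a gene length. Symbols came from GENCODE vM21, which matched 46488 of 47069 identifiers.

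Expected counts were rounded. The filter was filterByExpr (minimum count 10) in edgeR 4.0.16 under R 4.3.3, and CPM were scaled with TMM factors over the 16 oocytes. Group means were compared as log2 ratios after adding 1 CPM; folds are plain ratios of means. TPM served for comparisons between genes. Pooled counts carry exact 95% Poisson intervals. The steps were tested on simulated data. DESeq2 1.42.0 served an alternative; tables and figures used Python 3.11.15 with pandas 2.3.3, numpy 2.4.6, scipy 1.17.1 and matplotlib 3.10.9.

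Batch was assigned from the titles. Titles with a batch 2 prefix (2-1 or 2-2) were taken as batch 2 and the others as batch 1, though most of those others name no batch. The genes named are the 10 cohesin genes, the list genes that were apart (a part of them), the marker lists and, for each cohesin gene, the 2 genes most alike in r, leaving out predicted genes. The cohesin genes and all lists were chosen with earlier results of these data known. Each oocyte was also left out in turn, and scaling, added CPM, filter, mean, batch and the low library were varied. Promoter windows came from RefSeq and transcript ends from GENCODE vM21; a whole-genome sequence and protein sequences were not used here.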

Additional observations from a re-analysis of the deposited data

How the results depend on the processing

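No group had named animals, so there was no test whose calls could be lost, and SDs between oocytes served as the yardstick. No paired analysis was possible because the replicate numbers only name oocytes and no test was run. The median log2 ratio kept its sign under all 18, 17 and 18 alternatives for maturation in young controls (0.21 to 1.55), maturation in aged controls (0.89 to 1.95) and age in MII oocytes (0.15 to 0.99). In aged controls it was 1.94 with the low library kept, 1.95 within batch 1 and 0.89 within batch 2, and 1.26 to 1.85 leaving out 1 oocyte. For maturation after NMN it was -2.35 within batch 1, -0.87 as a difference of mean log2 values, and -2.40 to 1.23 leaving out 1 oocyte. For age in GV oocytes it was -0.92 to 0.25 leaving out 1 oocyte. For NMN in GV oocytes it was 0.09 with the low library kept, -0.03 within batch 1 and -0.81 to 0.18 leaving out 1 oocyte. For NMN in MII oocytes it was -3.53 within batch 1 and -3.78 to -0.22 leaving out 1 oocyte. The cause of these shifts was not tested beyond the oocytes each setting drops.

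Scaling moved the median of all genes: for maturation in young controls it was 0.35 with TMM, 0.10 with DESeq2 size factors and 0.67 by TPM, and for NMN in MII oocytes -0.33, -0.22 and -0.68. From counts without length, mean shares were 39.9% and 25.0% for Smc1b in GV young and aged controls, 92.9% and 93.1% for Esco2 in GV aged control and GV aged NMN oocytes, and, for Sgo2a, 13.5%, 33.2% and 16.9% in the GV groups and 22.7%, 27.6% and 14.6% in the MII groups, in the order young, aged, NMN. With 1 to 3 counts of Sgo2a in 3 oocytes, its low values carry little information.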
